A study of Mus musculus with 5 samples.

Results

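The cells described here are cycling thymocyte-like cells found in freshly sorted lung cells of mice that had carried a tumour for 3 weeks. They were selected in the single library of the wk3 ta-non-activated group. A cell belonged to them if it had at least 200 genes, under 5% mitochondrial counts, a unique molecular identifier (UMI, 1 captured RNA molecule) of at least 2 of 6 thymocyte genes (Dntt, Ptcra, Arpp21, Myl10, Ly6d, Rag1) and of at least 2 of 12 cell-cycle genes (Mki67, Top2a, Birc5, Cdk1, Ccna2, Ccnb1, Ccnb2, Cenpf, Ube2c, Nusap1, Tpx2, Cdc20). This gave 216 of the 1601 cells kept in that library, and of 16530 kept in all 5 libraries. A further 632 cells of the library had the thymocyte genes but 0 or 1 of the cell-cycle genes and are called non-cycling here. The cycling cells were thus 25.5% of 848 thymocyte-like cells (exact Clopper-Pearson 95% interval 22.6 to 28.5, counting error only).

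All libraries were made on the 10x Genomics 3' platform from wild-type C57BL/6 female mice of 4 to 8 weeks, with 5 mice pooled in each and 1 library per group. The groups were naive (no tumour), wk2 and wk3 ta-non-activated (TC1 lung cancer cells under the skin of the flank, with lungs taken after 2 or 3 weeks and cells sequenced directly), and wk2 and wk3 ta-activated (the same tumour times, followed by culture for 7 days in the presence of TSLP, rmIL-33 and rhIL-2). In every group, group 2 innate lymphoid cells (ILC2s) were enriched from lung and sorted as CD45+ cells that bound no lineage antibody, CD3, CD4, CD8 alpha and TCR beta among them, and that carried ST2, CD127 and Thy1.2. With pooled mice and 1 library per group there is no replicate, so no test was possible: intervals below are exact Poisson or binomial 95% intervals that cover counting error only, and every difference is a description of these cells.

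Early thymocytes pass through double-negative stages, so called because they lack both CD4 and CD8, while Notch signals from the thymic stroma keep the T lineage open and the RAG and Dntt enzymes assemble the T-cell receptor (TCR) genes. A TCR beta chain that can be made pairs with the pre-TCR alpha chain, encoded by Ptcra. The signal of this pre-TCR, known as beta-selection, is followed in the thymus by a burst of divisions in which Notch target genes, Il2ra and the recombinase are turned down, and CD8 appears before CD4. The dividing cells draw on E2F factors for DNA replication genes and on the MuvB complex with NF-Y for mitotic genes.

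Promoters of 4 genes of the cell cycle and of Ptcra are shown because they hold, or lack, the letters through which these factors are known to act. Each run is the 250 bases before the RefSeq start of the gene on GRCm38.p6, printed 5′ to 3′ on the strand of the gene. Capitals mark the CHR element (TTTGAA), the CCAAT box (CCAAT) and the E2F letters TTTCCCGC, TTTGGCGC and TTTCGCGC, each searched on both strands.
Cdk1, chr10:69352913-69353162, minus strand: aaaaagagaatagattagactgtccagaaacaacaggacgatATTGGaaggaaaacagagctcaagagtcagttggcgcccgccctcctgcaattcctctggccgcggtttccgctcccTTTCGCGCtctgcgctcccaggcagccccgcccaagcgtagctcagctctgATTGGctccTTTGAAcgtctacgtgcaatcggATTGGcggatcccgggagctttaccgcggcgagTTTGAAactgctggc
Top2a, chr11:99024190-99024439, minus strand: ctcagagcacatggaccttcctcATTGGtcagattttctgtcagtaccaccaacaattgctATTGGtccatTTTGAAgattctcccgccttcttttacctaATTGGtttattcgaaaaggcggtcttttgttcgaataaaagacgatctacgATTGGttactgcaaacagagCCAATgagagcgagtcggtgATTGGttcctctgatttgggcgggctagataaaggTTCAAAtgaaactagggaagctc
Mki67, chr7:135716380-135716629, minus strand: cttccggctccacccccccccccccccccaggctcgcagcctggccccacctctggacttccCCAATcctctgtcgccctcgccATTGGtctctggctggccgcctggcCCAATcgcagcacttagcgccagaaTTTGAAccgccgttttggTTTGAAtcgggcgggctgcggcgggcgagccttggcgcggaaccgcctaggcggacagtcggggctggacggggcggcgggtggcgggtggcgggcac
Mcm5, chr8:75109259-75109508, plus strand: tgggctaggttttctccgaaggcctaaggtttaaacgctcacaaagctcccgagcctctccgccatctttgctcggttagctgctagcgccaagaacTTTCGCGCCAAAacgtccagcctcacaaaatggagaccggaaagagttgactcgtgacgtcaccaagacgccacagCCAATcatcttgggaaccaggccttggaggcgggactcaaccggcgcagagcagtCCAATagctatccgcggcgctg
Ptcra, chr17:46763713-46763962, minus strand: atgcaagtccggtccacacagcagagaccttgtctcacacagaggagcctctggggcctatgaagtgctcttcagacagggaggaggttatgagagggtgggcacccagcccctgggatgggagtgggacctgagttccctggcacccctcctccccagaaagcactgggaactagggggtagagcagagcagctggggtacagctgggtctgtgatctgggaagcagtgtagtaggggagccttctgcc

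Cdk1, the kinase of mitotic entry, held 2 CHR matches, 3 CCAAT boxes and 1 E2F match. Top2a, which untangles DNA, held 2 CHR matches and 6 CCAAT boxes, and Mki67, the classical marker of dividing cells, held 2 and 3. In Mcm5, a subunit of the replicative helicase, 2 E2F matches overlapped, one on each strand. None of these letters stood in this window of Ptcra, which held 2 matches to the E box (CANNTG), the letters of E proteins, not capitalised here and found in 66.2% of all promoters. Over 32841 promoters of the same length, 16.0% held TTTGAA, 33.9% held CCAAT and 1.53% held any of the 3 E2F strings. Among the mitosis and spindle genes listed for this work, 43 of 54 had a sequence, with 46 promoters, of which 41.3% held TTTGAA, 78.3% held CCAAT and 6.52% an E2F string. Among the DNA replication genes, 39 of 50 had a sequence, also with 46 promoters, and the shares were 10.9%, 63.0% and 23.9%. A match describes the letters in the window and is no evidence of binding.

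The T-lineage part of the label of thymocyte-like cells was checked with CD3 genes, which the rule did not use. Mature T cells also express them, so these values do not bear on the thymocyte part of the label. Cd3g, Cd3e and Cd3d, the chains that carry the TCR to the surface, stood at 1335 (95% interval 1296 to 1375), 257 (240 to 274) and 544 (519 to 569) CPM (counts scaled to 1e+06 UMIs) in the cycling cells. In the 494 ILC2-like cells of the same library, named from UMIs of at least 3 of 13 ILC2 genes, these levels were 260, 14.7 and 18.5 CPM. After each cell had been thinned to 2000 UMIs, 76.7% of 215 cycling cells had UMIs of at least 2 of the 4 CD3 genes (70.5 to 82.2), against 90.1% of 625 non-cycling cells (87.5 to 92.3) and 2.88% of 452 ILC2-like cells (1.54 to 4.87). Shallower cells were left out, 1, 7 and 42 of them, and without thinning the shares were 98.1%, 98.1% and 3.44%. The sort had removed cells with CD3 on the surface, and the RNA of these chains was nevertheless abundant.

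Of the sort's own markers, ILC2-defining Il1rl1 was near 0 in RNA. Il1rl1, which encodes ST2, gave 4 UMIs over the 216 cycling cells (1.20 CPM, 0.328 to 3.08) against 415 CPM in ILC2-like cells. Il7r, encoding CD127, stood at 65.3 CPM against 1484, whereas Thy1 was at 239 against 145 and Ptprc, encoding CD45, at 194 against 422. The 15 listed ILC2 genes summed to 154 CPM in the cycling cells (141 to 168), 255 in non-cycling cells and 6580 in ILC2-like cells, a class whose level is fixed in part by its selection on 13 of these genes. Gata3, shared by T cells and ILC2s, was their most abundant member at 74.6 CPM, and Il5, Klrg1 and Nmur1 were at 0. UMIs of 3 or more of the 13 ILC2 genes occurred in 3 of the 216 cells, and counts of called genes barely moved without them (388 and 460, see the comparison below).

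Markers of other cell types ranged from 0 to 963 CPM. All 5 granulocyte markers, all 6 erythroid markers and all 4 fibroblast markers gave 0 UMIs in the cycling cells, where 3 UMIs of the 3324541 in all would be 0.902 CPM. Of 8 B-cell markers, 6 were at 0, Ms4a1 and Pax5 among them, and the list summed to 18.3 CPM, nearly all Cd79b, while Ighm, outside that list and named after its values were seen, was at 140 CPM and 108 in non-cycling cells. The 7 myeloid markers summed to 131 CPM, of which Cst3 made 125, with Csf1r, Adgre1, Itgam and Fcgr3 at 0. Of 4 genes of the thymic stroma, Foxn1, Psmb11 and Prss16 were at 0 and Ccl25 was at 17.7 CPM. Early progenitor genes were also near 0, with 27.1 CPM over 13 genes, Cd34 at 0.602, Flt3 at 0.602 and Kit at 8.72 CPM. The 5 plasmacytoid dendritic cell markers summed to 349 CPM (329 to 370) and 591 in non-cycling cells, of which Bst2, also an interferon-induced gene, made 310 and 520, with Siglech and Ly6c2 at 0. The mast cell list gave 55.0 CPM, all Cpa3, the epithelial list 35.8 CPM, nearly all Epcam at 34.9, and the endothelial list 22.9 CPM, nearly all Pecam1 at 21.4. Gzma, listed as an NK-cell gene, was the most abundant of these markers at 963 CPM (930 to 997) and 601 in non-cycling cells (577 to 626), while Ncr1, Klrb1c and Eomes were at 0. The part of other cells or of free RNA in these values was not tested.

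Cycling cells that met the rule were seen in other libraries at most once. The same rule found 0 of 6389 naive cells (a count of 0, read as at most 3 cells of the total, allows up to 0.0470%), 0 of 1823 wk2 ta-non-activated cells (0.165%) and 0 of 3822 wk3 ta-activated cells (0.0785%). It found 1 of 2895 wk2 ta-activated cells, a barcode with 133264 UMIs. Non-cycling thymocyte-like cells numbered 6 in the wk3 ta-activated library and 0 in the other 3. Dntt gave 5, 0, 0 and 4 UMIs over all kept cells of the naive, wk2 ta-non-activated, wk2 ta-activated and wk3 ta-activated libraries. The wk3 ta-non-activated library shared 7 barcode sequences with the naive library, 2 of them among the cycling cells, and 1, 3 and 1 with the wk2 ta-non-activated, wk2 ta-activated and wk3 ta-activated libraries. Since each group is 1 library of pooled mice, time after implantation and library cannot be told apart.

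The number of cell-cycle genes per cell fell into a low and a broad high range. Of the 848 thymocyte-like cells, 458 had none of the 12 genes and 174 had 1, and the cycling cells ran from 24 cells with 2 genes over 9 with 4 to 38 with all 12. The 24 cells just inside the threshold had 5661 CPM of the DNA replication list (5345 to 5990) and 1363 CPM of the mitosis list (1211 to 1530). The 174 cells just outside it had 2758 CPM (2666 to 2854) and 1149 CPM (1089 to 1211), and those with none had 1803 and 1165 CPM. On the thymocyte side of the rule, 4 cycling cells had exactly 2 of the 6 genes and 26 had all 6, and 1 cell with cell-cycle genes was left out for having only 1.

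**Figure D1:**
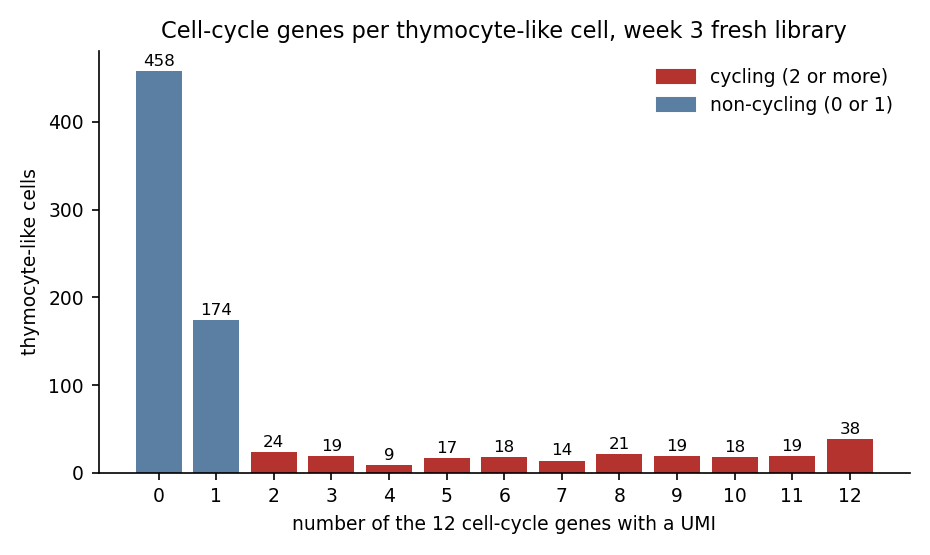
Number of thymocyte-like cells (vertical axis) by how many of the 12 cell-cycle genes of the rule had a UMI in the cell (horizontal axis), in the wk3 ta-non-activated library. Blue bars are non-cycling and red bars cycling cells, and the red bars run between 9 and 38 cells while the blue bars hold 458 and 174.

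Depth differed between the classes and moved with the count of cell-cycle genes. The cycling cells had a median of 14635 UMIs (quartiles 11062 and 19616, range 1595 to 34741) and 3444 genes, and the non-cycling cells 5636 UMIs (range 544 to 15090) and 2039 genes. The median mitochondrial share was 2.63% and 3.31%. Among the cycling cells the number of cell-cycle genes and the UMI count had a Spearman correlation of 0.62 across 216 cells of 1 library, in which deeper cells also detect more genes. How much of this is RNA content and how much is capture was not tested, so each main contrast was also made against the 158 deepest non-cycling cells (at least 6970 UMIs, median 8466).

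Between cycling and non-cycling thymocyte-like cells, the genes of DNA replication, mitosis and histones were higher in the cycling cells, and 5 of 11 Notch genes and 6 of 10 TCR and CD3 genes were lower. The contrast used summed counts, genes with at least 50 UMIs over both classes and log2 ratios of CPM with 10 CPM added, which understate the change of low genes. Of 7823 such genes, 388 were at least 2-fold higher (4.96%) and 452 at least 2-fold lower (5.78%) by this measure, and the median over all of them was -0.13. With median-of-ratios scaling the split was 557 higher and 272 lower and the median over all genes 0.03. Counts of lists below are read beside these shares. The cell-cycle genes of the rule chose the classes, and with them every gene that moves with the cell cycle, so these values describe the classes and are no test of them.

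DNA replication genes were higher by a median log2 ratio of 1.58 over the 50 listed, all of which passed the filter, with 42 at least 2-fold higher and 0 lower. Ranked by the log2 ratio with 10 CPM added, Pclaf, which binds the sliding clamp PCNA, was the highest gene outside the rule. It had 876 CPM (844 to 908) against 7.32 (4.87 to 10.6), a log2 ratio of 5.68. Rrm2, the small subunit of ribonucleotide reductase, was second by this ratio with 344 CPM (324 to 364) against 9.68 (6.81 to 13.3). Plain folds of CPM give another order. Both enzymes of dTMP supply were also high: Tyms, thymidylate synthase, stood at 294 against 20.7 CPM and Tk1, thymidine kinase, at 78.2 against 1.57 CPM. Smaller differences were seen for the helicase subunits, from Mcm5 (194 against 38.4 CPM, log2 ratio 2.07) to Mcm4 (168 against 81.3 CPM, 0.97), and for Uhrf1, which recruits the maintenance methyltransferase (178 against 133 CPM, 0.40). Against the 158 deepest non-cycling cells the median of the list was 1.19. Mcm2, Mcm3, Mcm6, Mcm7, Gins1, Prim1, Rfc1, Rfc2, Rpa1, Dnmt1, Chaf1a and Ung no longer reached 2-fold there.

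Mitosis and spindle genes had a median log2 ratio of 2.06, with 49 of 54 listed genes past the filter, 45 at least 2-fold higher and 0 lower. Among the 12 highest genes outside the rule were Cdca8 and Aurkb of the chromosomal passenger complex (190 against 4.45 CPM and 92.9 against 1.31 CPM), Kif11, the spindle motor (116 against 2.35 CPM), Spc25 and Knl1 of the kinetochore (87.5 against 1.31 CPM and 92.0 against 1.83 CPM), Cdca3 (114 against 2.09 CPM) and the kinase Pbk (101 against 1.31 CPM). Kif4, a chromosome motor, gave 40.3 CPM against 0 UMIs, at least 51.4-fold higher if 3 UMIs over the non-cycling class are taken as the floor. The other 4, Smc4, Pttg1, Bub3 and Kif23, were under 2-fold, and Smc4 of condensin was the lowest with 488 CPM (465 to 513) against 526 (503 to 550). With genes at 0 placed at their bound the median was 2.12, and against the deepest non-cycling cells it was 2.06.

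Histone genes, whose messages accumulate in S phase, had 35 of 40 listed members past the filter, 29 at least 2-fold higher and 0 lower. Their summed level was 5208 CPM (5131 to 5286) against 1195 (1161 to 1230). The list median log2 ratio was 1.48, and 0.64 with a pseudocount of 50 CPM, where many single members fell under 2-fold. Some, Hist1h3a and Hist1h4a among them, also did so after thinning to 2000 UMIs. Hist1h2ap was the most abundant at 1532 against 224 CPM, Hist1h2bj was among the 12 highest genes outside the rule at 160 against 8.37 CPM, and Hist1h1c, a linker histone also made outside S phase, ran the other way at 106 against 184 CPM (log2 ratio -0.74). These genes are near-identical copies, and a read that matches several of them cannot be placed with certainty. The values of single members, and in part their sum, are uncertain for that reason. Chromatin and tubulin genes were similar, with 14 of 19 higher and 0 lower: H2afz was at 4203 against 859 CPM, Hmgb2 at 3614 against 701, Stmn1 at 2538 against 765 and Tuba1b at 874 against 69.3 CPM.

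Regulators of cell-cycle entry split. Of 30 listed, 25 passed the filter, 10 were at least 2-fold higher and 5 at least 2-fold lower. Higher were the E cyclins that start S phase with their kinase Cdk2 (Ccne2 at 56.5 against 3.66 CPM), the E2F genes E2f1, E2f2, E2f3 and E2f8, the pocket protein gene Rbl1, and Mybl2 and Foxm1, activators of mitotic genes. E2f1 was at 53.5 against 13.1 CPM and Mybl2 at 32.5 against 2.35. Among the D cyclins, which couple outside signals to the cycle, Ccnd2 was lower at 60.5 CPM (52.4 to 69.4) against 171 (158 to 184), while Ccnd3 was at 174 (160 to 188) against 103 (93.1 to 114), and Ccnd1 gave 0 UMIs. The kinase partners also differed, with Cdk4 at 454 against 267 CPM and Cdk6 at 357 against 701 CPM. The other lower genes act against division: the inhibitors Cdkn1a (55.9 against 193 CPM) and Cdkn1b (73.1 against 179 CPM) and the antiproliferative genes Btg1 (168 against 654 CPM) and Btg2 (274 against 650 CPM). E2f1, Rbl1, Cdkn1b and Btg2 no longer reached 2-fold against the deepest non-cycling cells. Foxm1, Cdkn1b and Btg2 did not reach it after thinning to 2000 UMIs, nor Cdkn1b and Btg2 with median-of-ratios scaling. With a pseudocount of 50 CPM, none of the higher genes reached 2-fold, nor did Ccnd2 and Cdkn1b.

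**Figure D2:**
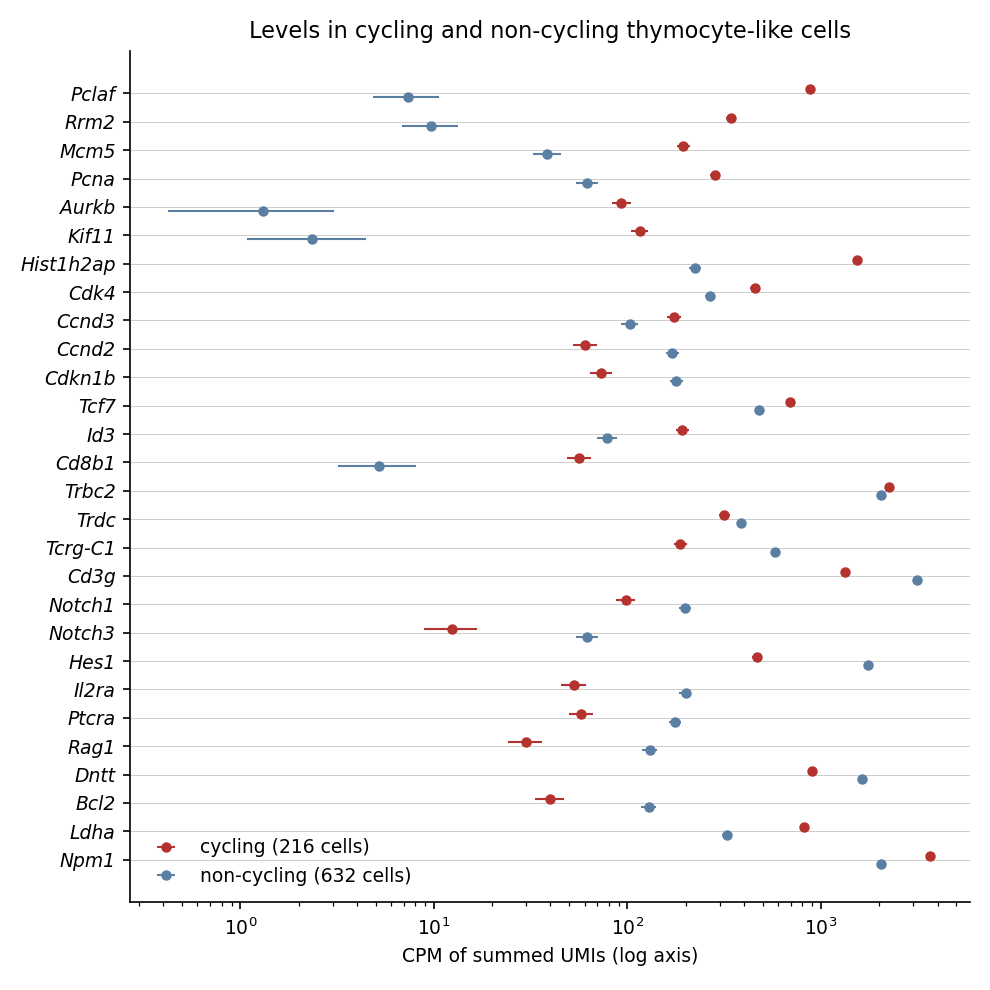
Level of 28 genes as CPM of summed UMIs (logarithmic horizontal axis) in 216 cycling cells (red) and 632 non-cycling cells (blue) of the wk3 ta-non-activated library, with exact Poisson 95% intervals. Genes of replication and mitosis lie to the right in cycling cells, Notch3, Hes1, Il2ra, Ptcra and Rag1 lie to the left, and Trbc2 nearly coincides. Ptcra and Rag1 belong to the rule that chose both classes, which differ in depth.

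Of the 11 listed Notch genes past the filter, 0 were higher, 5 lower and 6 between. Hes1, the main transcriptional target of Notch (chr16:30064384-30067796, plus strand), stood at 465 CPM (442 to 488) against 1742 (1700 to 1784), 3.75-fold lower. Its level in ILC2-like cells was 609 CPM. Il2ra, the CD25 chain that marks the stage before beta-selection, was at 52.9 (45.4 to 61.4) against 200 (186 to 214) CPM, and Notch3 at 12.3 (8.85 to 16.7) against 61.7 (54.1 to 70.1). Dtx1 and Hey1, also targets, were at 3.61 against 27.2 and 4.21 against 25.4 CPM. Notch1, the receptor of the early thymocyte, was at 98.1 against 198 CPM and Adam10, which cleaves it, at 34.9 against 32.2 CPM. At an equal depth of 2000 UMIs, Hes1 was detected in 38.6% of cycling cells (32.1 to 45.5) and 80.0% of non-cycling cells (76.6 to 83.1), and Il2ra in 9.77% (6.15 to 14.5) and 31.5% (27.9 to 35.3). Against the deepest non-cycling cells Hes1 and Il2ra were still 2-fold lower (log2 ratios -1.51 and -1.23), while Notch3 and Dtx1 were not. With a pseudocount of 50 CPM, Notch3, Dtx1 and Hey1 were under 2-fold.

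The thymocyte genes of the rule were at lower levels in the cycling cells, 5 of the 6 by at least 2-fold. Both classes were chosen on UMIs of these 6 genes, and a deeper cell meets that rule at a lower level. The values of these 6 genes therefore describe the selected cells and are no test. Ptcra was at 57.5 (49.6 to 66.2) against 176 (163 to 190) CPM and Rag1, the recombinase, at 29.8 (24.2 to 36.3) against 130 (119 to 142). Dntt, which adds bases at the joints of TCR genes, was at 901 (869 to 934) against 1624 (1584 to 1665). Myl10, Ly6d and Arpp21 were at 446 against 2020, 1002 against 2324 and 258 against 660 CPM. Of the 11 other genes of rearrangement and repair, 0 were higher and 2 lower, Dclre1c, which opens the hairpins left by RAG (9.32 against 39.2 CPM), and Lig4, which joins the ends (9.02 against 29.3 CPM), neither of which reached 2-fold against the deepest non-cycling cells. Rag2 was low in both classes, at 6.92 (4.39 to 10.4) and 9.15 (6.38 to 12.7) CPM, with overlapping intervals. The difference for Ptcra, Arpp21 and Ly6d was under 2-fold against the deepest non-cycling cells, with a log2 ratio of -0.70 for Ptcra in place of -1.47.

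TCR and CD3 genes did not move as 1 group, with 0 of 10 genes past the filter higher, 6 lower and 4 between. The constant genes of the beta chain stayed close to the non-cycling level, Trbc1 at 1345 (1306 to 1385) against 1617 (1577 to 1658) and Trbc2 at 2248 (2197 to 2299) against 2041 (1996 to 2087) CPM. The sign of Trbc1's change was not the sign of Trbc2's, and reads that match both of these near-identical genes cannot be placed with certainty. The gamma constant genes were lower, Tcrg-C1 at 188 (173 to 203) against 577 (553 to 602), Tcrg-C4 at 118 against 381 and Tcrg-C2 at 240 against 511 CPM. The delta constant gene Trdc was at 317 (298 to 337) against 385 (366 to 406). Cd3d, Cd3e and Cd3g were each 2.11-fold to 2.34-fold lower, a difference that did not reach 2-fold against the deepest non-cycling cells or with median-of-ratios scaling. The 3 gamma constant genes stayed at least 2-fold lower against the deepest cells, but Tcrg-C2 did not with median-of-ratios scaling, with per-cell means, after thinning or with a pseudocount of 50 CPM. The alpha constant gene Trac, which opens late in thymocyte development, gave 19 UMIs in the cycling cells and 1 in the non-cycling cells.

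Variable segments differed in level by chain. Segments named Trbv gave 119 UMIs in 80 of 216 cycling cells (35.8 CPM, 29.7 to 42.8), 89 in 79 of 632 non-cycling cells (23.3 CPM, 18.7 to 28.6) and 0 in the 494 ILC2-like cells. The UMIs of the cycling cells fell on 20 of the 35 Trbv genes, with Trbv2 the most frequent at 23 UMIs. Segments of the gamma chain gave 118 CPM (107 to 130) against 242 (227 to 258), and in both classes nearly all were Trgv2, with 363 and 820 UMIs. Trav segments, 46 and 49 UMIs, and Trdv segments, 50 and 39 UMIs, had overlapping intervals between the classes on the CPM scale. In the ILC2-like cells Trdv segments gave 376 UMIs in 223 of 494 cells (240 CPM), gamma segments 18 UMIs and Trav segments 13 UMIs. No J or D segment was counted in any of the 3 classes.

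Genes tied to the step after beta-selection were mixed. Of the 16 listed, 10 passed the filter, with 1 higher and 1 lower, so the list as a whole did not stand apart from the shares above. Its higher member was Id3, an inhibitor of E proteins that pre-TCR signals induce (chr4:136143497-136145755, plus strand), at 192 CPM (177 to 207) against 78.5 (69.8 to 87.9). Id3 was found in 27.9% of cycling cells (22.02 to 34.4) and 9.76% of non-cycling cells (7.55 to 12.4) at equal depth, and its log2 ratio of 1.19 became 1.0, just under 2-fold, against the deepest non-cycling cells. Its lower member was Cd69, at 75.5 against 198 CPM, which was under 2-fold after thinning to 2000 UMIs. With a pseudocount of 50 CPM both Id3 and Cd69 were under 2-fold. Cd27, which rises with beta-selection in the thymus, was at 90.5 against 182 CPM, Cd28 at 115 (104 to 127) against 93.6 (84.2 to 104), and Cd5 near 0 in both classes at 2.71 and 2.88 CPM. Egr1, Egr2 and Egr3, early genes of receptor signals, were at 12.6, 0.602 and 0.902 CPM.

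Cd8b1 was the coreceptor gene that passed the filter, and it was higher in the cycling cells. Cd8b1, the CD8 beta chain (chr6:71322788-71337494, plus strand), gave 187 UMIs in 62 of the 216 cycling cells and 20 UMIs in 5 of the 632 non-cycling cells, or 56.2 CPM (48.5 to 64.9) against 5.23 (3.19 to 8.08). At equal depth it was detected in 9.30% of cycling cells (5.78 to 14), 0.160% of non-cycling cells (0.00405 to 0.888) and 0 of 452 ILC2-like cells. Its log2 ratio of 2.12 became 1.48 against the deepest non-cycling cells and 0.94, under 2-fold, with a pseudocount of 50 CPM. Cd8a, which the lineage antibodies cover on the surface, gave 21 UMIs in the cycling cells and 1 in the non-cycling cells. Cd4 gave 0 UMIs in the cycling cells and 3 in the non-cycling cells.

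T-lineage factors went in both directions, with 2 of 22 genes past the filter higher (Id3 and Ikzf3) and 5 lower. Tcf7, which sets up the T-cell program, was at 695 CPM (667 to 724) against 480 (458 to 502) and detected in 71.6% against 54.2% of cells at equal depth, a difference under 2-fold. Lef1, its relative, was at 182 against 169 and Gata3 at 74.6 against 76.1 CPM, with overlapping intervals. The lower genes were Ikzf2 (117 against 346 CPM), Sox4 (276 against 701 CPM), Runx1 (110 against 253 CPM), Bcl11b, the commitment factor (291 against 597 CPM), and Themis (63.8 against 150 CPM). Sh2d1a, the adaptor SAP, was the single higher gene of 16 in TCR signalling, at 291 (273 to 310) against 138 (127 to 150) CPM, and Lcp2, Ptpn22 and Txk were lower. Against the deepest non-cycling cells Ikzf3, Sh2d1a, Runx1, Bcl11b, Themis, Ptpn22 and Txk were under 2-fold, and Ikzf2, Sox4 and Lcp2 were not. Lcp2 was under 2-fold, however, after thinning to 2000 UMIs and with a pseudocount of 50 CPM.

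Growth genes were higher as a list but mostly by less than 2-fold. Of 21 genes of ribosome biogenesis and growth, 2 were at least 2-fold higher, Srm of polyamine synthesis (199 against 70.6 CPM) and Cad of pyrimidine synthesis (29.5 against 7.06 CPM), and 0 were lower, with a list median of 0.69. The median of this list was 0.44 against the deepest non-cycling cells. Npm1, a nucleolar chaperone, was at 3663 against 2054 CPM. In glycolysis 3 of 14 genes were higher and 0 lower, with a median of 0.78: Ldha stood at 813 (782 to 844) against 327 (309 to 346), Pgam1 at 309 against 103 and Pgk1 at 325 against 142 CPM. These 3, Srm and Bid, described next, did not reach 2-fold against the deepest non-cycling cells. Of 8 survival and death genes past the filter, 1 was higher, 3 lower and 4 between, with a list median of -0.17. Lower were Mcl1 (245 against 825 CPM), Bcl2 (39.7 against 129 CPM) and the opposing Bcl2l11, which encodes Bim (79.1 against 191 CPM). The death gene Bid was higher at 38.2 against 13.6 CPM. Bcl2l11 was under 2-fold with median-of-ratios scaling, with per-cell means and after thinning. With a pseudocount of 50 CPM, Bcl2l11, Bcl2 and Bid were all under 2-fold.

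Leaving out the genes of the rule, the 12 lowest ratios belonged to genes outside these lists. Junb, a subunit of the AP-1 factor, was the lowest of all by the log2 ratio with 10 CPM added (-2.43), at 577 CPM against 3153. Its partner Fosl2 was at 32.5 against 168 CPM. Isg15, an interferon-induced gene, was at 72.8 against 330 CPM, the chemokine Ccl4 at 11.1 against 76.1, and Ptgs2, an enzyme of prostaglandin synthesis, at 2.71 against 47.9. Without the added 10 CPM, Ptgs2 was 17.7-fold lower and Junb 5.47-fold lower. The other 7 of these 12 were Zbtb20, AW011738, Gm5111, Sytl1, Ypel3, Pld4 and Spsb2, with log2 ratios from -2.20 to -1.98. Malat1, a nuclear long noncoding RNA named here after its values were seen, was at 5160 against 19384 CPM. Of homing genes Ccr9, the receptor for a thymic and gut chemokine, was at 29.8 against 130 CPM and Cd24a at 543 against 1148, the second of which was under 2-fold against the deepest non-cycling cells. Of genes of mature T cells Ifng was at 4.21 against 43.4 CPM, and 0 of 7 past the filter were higher.

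Within the cycling cells, replication and mitosis genes varied separately. Per cell the DNA replication list had a median of 8667 CPM (quartiles 5748 and 11083, range 815 to 18014) and the mitosis list 3150 CPM (quartiles 1950 and 5399, range 400 to 15709). Their Spearman correlation was 0.15 across 216 cells that share a library and whose 2 sums share a denominator. Set against the 95th percentile of the non-cycling cells, 115 cycling cells exceeded both, 50 the replication level (5390 CPM) alone, 31 the mitosis level (2334 CPM) alone and 20 neither. Non-cycling cells ranged up to 10579 CPM of the replication list, so the highest of them lay above the median of the cycling cells.

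**Figure D3:**
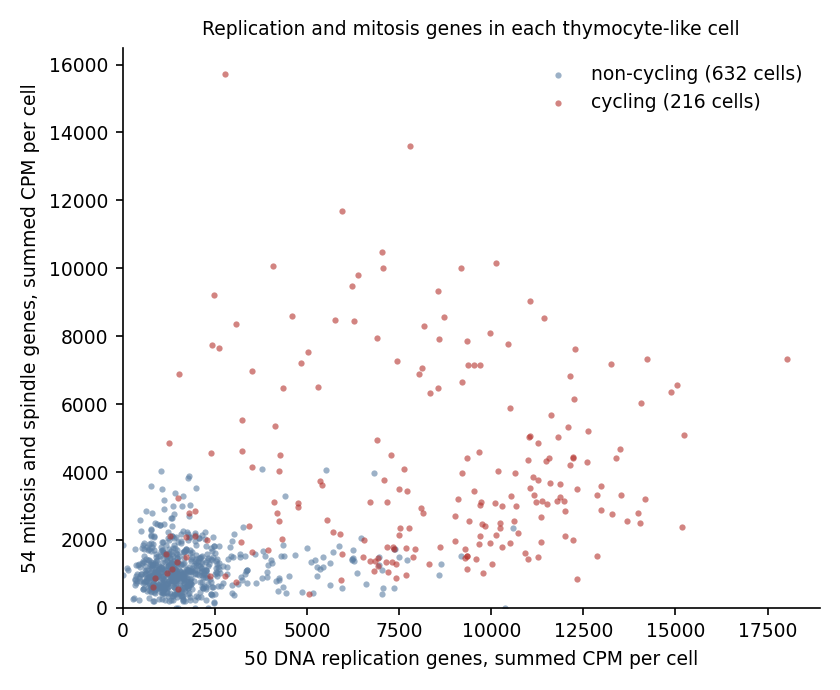
Summed CPM of the 50 DNA replication genes (horizontal axis) and of the 54 listed mitosis and spindle genes (vertical axis) in each of the 216 cycling (red) and 632 non-cycling (blue) thymocyte-like cells. Cycling cells spread along both axes, up to 18014 and 15709 CPM, and most non-cycling cells lie near the origin.

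Stage genes did not follow the number of cell-cycle genes in a straight line. Cells were divided into those with 0, 1, 2 to 4, 5 to 8 and 9 to 12 of the 12 genes (458, 174, 52, 70 and 94 cells, with median depths of 5408, 6530, 8932, 14216 and 19257 UMIs). Hes1 was at 1785, 1648, 922, 231 and 470 CPM over these 5 classes, with the last pair at 203 to 263 and 439 to 503. It was thus lowest in the cells with 5 to 8 genes. Il2ra followed a like course, with 215, 167, 114, 29.4 and 49.3 CPM, though the intervals of the last pair overlapped (19.8 to 41.9 and 39.6 to 60.7). Tcrg-C1 was at 595, 539, 425, 129 and 155 CPM, again with overlap in the last pair, and Ptcra at 183, 162, 84.2, 63.7 and 46.5 CPM. Ptcra, a gene of the rule that chose these cells, was thus not higher in the last class than in the one before. Junb was at 3135, 3194, 1495, 441 and 400 CPM and Malat1 at 20632, 16676, 8333, 3108 and 5444 CPM.

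Cd8b1 was highest where Hes1 was lowest. It was at 1.91, 12.4, 20.05, 86.2 and 49.3 CPM over the same classes, with intervals of 69.1 to 106 and 39.6 to 60.7 in the last pair. Tcf7 was at 458, 527, 740, 822 and 611 CPM, and Id3 at 80.6, 73.8, 128, 211 and 199 CPM, with overlapping intervals in the last pair of Id3. Trbc2 changed little, from 2026 to 2301 CPM. The replication list was at 6732, 9217 and 9293 CPM in the cycling classes, with overlapping intervals in the last pair. The mitosis list was at 1666, 2587 and 6210 CPM and the histone list at 1854, 3803 and 6930 CPM. Depth was higher from class to class, and its part in the course of each gene was not tested.

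**Figure D4:**
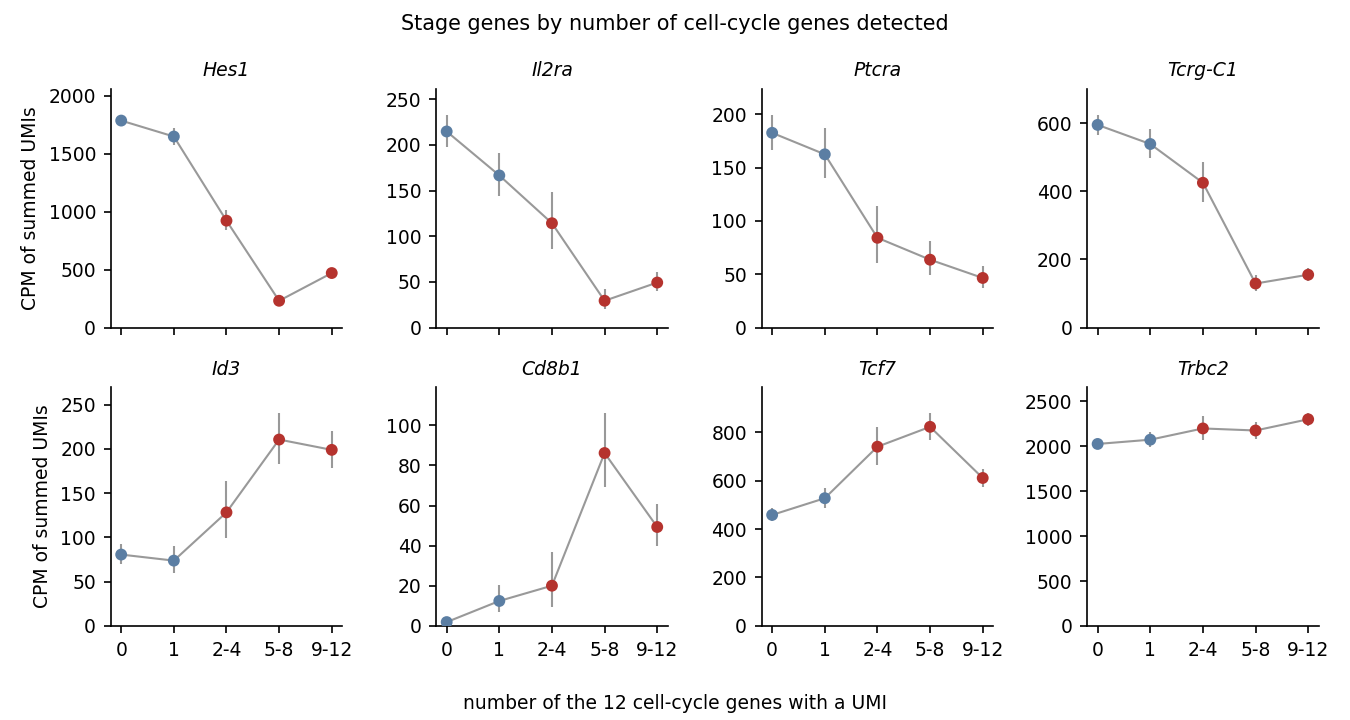
Level of 8 genes (CPM of summed UMIs, vertical axes from 0, exact Poisson 95% intervals) in thymocyte-like cells grouped by how many of the 12 cell-cycle genes had a UMI (horizontal axis); blue points are non-cycling and red points cycling cells. Hes1, Il2ra and Tcrg-C1 have their lowest and Cd8b1 and Tcf7 their highest points at 5 to 8 genes, in part with overlapping intervals, and Trbc2 is nearly level.

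Cycling cells with at least 2 Cd8b1 UMIs differed from those with none in other stage genes. This split was chosen after the values had been seen and is given without a test. The 34 cells with at least 2 Cd8b1 UMIs (median 18192 UMIs per cell, up to 14 of Cd8b1) were set beside the 154 cells with none (median 13954). Il2ra was at 1.66 CPM (0.0420 to 9.24) against 75.6 (64.6 to 87.9), and Tcrg-C1 at 31.5 (19.0 to 49.2) against 263 (242 to 285). Hes1 was at 169 (138 to 205) against 612 (580 to 646). Il2ra UMIs occurred in 8 of the 62 cells with any Cd8b1 and in 75 of the 154 without, although the former were deeper.

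Several genes were higher in these 34 cells. Cd8a, the other chain of CD8, was at 18.2 (9.10 to 32.6) against 4.05 (1.85 to 7.68) CPM and Cd2 at 16.6 (7.95 to 30.5) against 3.60 (1.55 to 7.09). Id3 was at 274 (233 to 319) against 156 (140 to 173) and Sh2d1a at 459 (407 to 517) against 236 (216 to 257). Trbc2 was at 2795 against 2006 CPM, and Trac at 13.3 (5.73 to 26.1) against 3.60 (1.55 to 7.09) CPM, with overlapping intervals. Ptcra, at 69.6 (50.2 to 94.1) against 54.9 (45.6 to 65.5) CPM, and Mki67, at 234 (197 to 276) against 241 (221 to 263) CPM, also had overlapping intervals. The 34 cells with at least 2 Cd8b1 UMIs thus had lower levels of Il2ra, Hes1 and Tcrg-C1 together with higher levels of Cd8a, Id3 and Trbc2.

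Cycling cells without the thymocyte genes were the last comparison, chosen with the same 12 cell-cycle genes. They numbered 72 in the naive library, 383 in wk2 ta-non-activated, 12 in wk3 ta-non-activated, 1286 in wk2 ta-activated and 1476 in wk3 ta-activated cells. Their median depths were 10530, 25639, 5344, 22165 and 19141 UMIs in that order, against 14635 in the thymocyte-like cells. The rule was not matched for depth, and a deeper cell meets it at a lower level of the 12 genes. The median summed level of these genes per cell was 609, 239, 674, 719 and 456 CPM, against 1456 in the thymocyte-like cells, and after thinning to 2000 UMIs the rule gave 35, 97, 38, 621 and 614 cells. The 38 include thymocyte-like cells that lost their thymocyte UMIs in thinning, since thinning cannot add cell-cycle genes. The levels below are therefore not those of equally cycling cells. Their ILC2 genes summed to between 4310 and 10906 CPM, against 154 in the cycling thymocyte-like cells. The DNA replication list was at 8885 CPM (8784 to 8987) in the thymocyte-like cells and at 4331, 5058, 3355 and 3079 CPM in the cycling cells of the naive, wk2 ta-non-activated, wk2 ta-activated and wk3 ta-activated libraries. Histones were at 5208 CPM against 1430, 631, 764 and 1564 CPM. The mitosis list was at 4416 CPM (4344 to 4488) against 3846 (3714 to 3982), 1856, 3365 and 3389 CPM. In the 12 other cycling cells of the same library, with 74480 UMIs in all, the 3 lists stood at 6418 (5855 to 7020), 2336 (2002 to 2710) and 3155 CPM (2765 to 3585) in the same order. The thymocyte-like cells were above those values in each list.

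**Figure D5:**
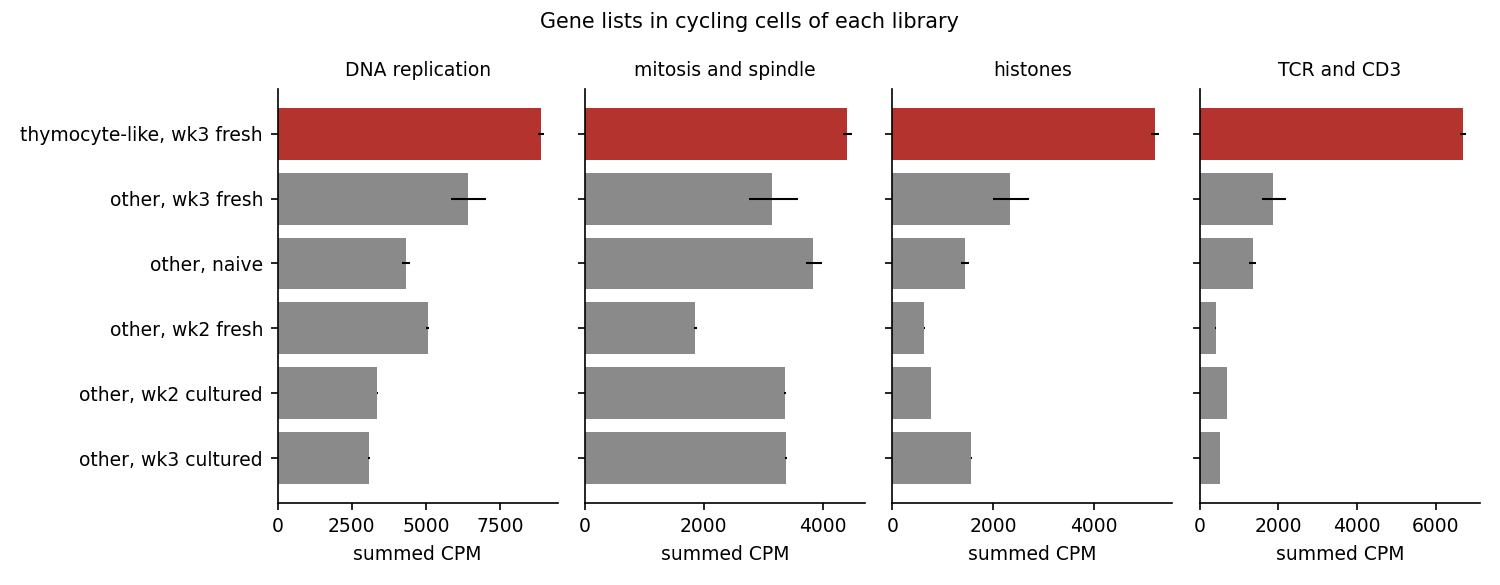
Summed CPM of 4 gene lists (horizontal axes, exact Poisson 95% intervals) in the 216 cycling thymocyte-like cells (red) and in cycling cells without thymocyte genes of each library (grey; fresh means ta-non-activated and cultured means ta-activated). Replication genes reach 8885 CPM and histones 5208 CPM in the thymocyte-like cells, above each grey bar.

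Gene by gene, 199 of 7537 genes with 20 CPM or more in these cells or in those of another library were at least 2-fold higher in the cycling thymocyte-like cells than in the cycling cells of each of the 4 other libraries (2.64%), and 394 were at least 2-fold lower than in each (5.23%). Of the histone genes 21 of 32 were higher than in each and 0 lower, and of the TCR and CD3 genes 9 of 11 were higher and 0 lower. Of the DNA replication genes 5 of 49 were higher, and of the mitosis genes 0 of 49 were higher or lower. Hist1h2ap stood at 1532 CPM against 67.5, 47.2, 106 and 291 CPM. Among regulators of cell-cycle entry 0 of 27 were higher and 3 lower, namely Rb1, Cdkn1a and Ccnd2. Cdkn1a was at 55.9 CPM against 162, 468, 684 and 733, and Ccnd2 at 60.5 CPM against 164, 437, 727 and 722. Ccnd3 was at 174 CPM against 223, 198, 187 and 152. These cells differ in type, depth, library and, for the ta-activated groups, culture at once. The naive library also differs in Cell Ranger version by its file header, 6.0.0 in place of 3.0.2. The parts of these cannot be told apart.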

How the data were processed

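Single-cell RNA was sequenced from 5 libraries on the 10x Genomics Chromium 3' platform, 1 per group. The authors deposited filtered matrices of UMI counts per gene and barcode, not normalised; the submitters' processing notes name Cell Ranger 3.0.2, GRCm38 and Seurat 3, and the file header of the naive library gives Cell Ranger 6.0.0. The annotation used for counting is not given in the sources used here. Libraries held between 9910201 and 71126524 UMIs, over 1838 to 6953 barcodes, and were restricted to the 27726 genes that all of them list.

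Barcodes were kept if they had 200 genes or more and a mitochondrial share below 5%. The sort removed doublets by pulse width; no doublet caller was run, and doublets of 2 thymocyte-like cells would not be seen. Counts were summed over the cells of a class, scaled to CPM and compared as log2 ratios with 10 CPM added, for genes with at least 50 UMIs in the 2 classes together. A gene was called at 2-fold, with no test, since each class came from 1 library. ILC2-like cells had UMIs of at least 3 of 13 ILC2 genes and were not thymocyte-like. CPM carry exact Poisson and shares Clopper-Pearson 95% intervals; where a count was 0, the floor was 3 counts over the class. Shares were compared after thinning each cell to 2000 UMIs. The ratio script was tested on simulated data. Genes were named as the 12 highest and 12 lowest log2 ratios outside the 18 genes of the rule, and from lists by role; the other genes were chosen after their values were seen. The members and lists were chosen with earlier results of these data known. Promoters came from RefSeq on GRCm38.p6 and gene positions from GENCODE M21 on GRCm38. Alternatives covered the rule, pseudocount, filter, scaling, thinning and depth of the compared cells. Python 3.11.15, numpy 2.4.6, scipy 1.17.1, pandas 2.3.3 and matplotlib 3.10.9 were used.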

Additional observations from a re-analysis of the deposited data

How the results depend on the processing

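No paired analysis was possible because each group is 1 library, so the labels share only replicate number 1; for the same reason no library could be left out. The number of cycling thymocyte-like cells, 216, lay between 192 and 229 under other limits on mitochondrial share, barcodes and gene numbers, and was 109 when each cell was thinned to 2000 UMIs before the rule was applied. In place of 388 genes called higher and 452 called lower, a pseudocount of 1 CPM gave 577 and 1029, one of 50 CPM gave 137 and 103, median-of-ratios scaling gave 557 and 272, and thinning each cell to 2000 UMIs gave 225 and 376. The comparison with the 158 deepest non-cycling cells, chosen after seeing the data, gave 290 and 235. The median log2 ratio of DNA replication genes, 1.58, was 1.97 and 1.02 with pseudocounts of 1 and 50 CPM, 1.85 for cells with at least 3 against none of the 12 cell-cycle genes, and 1.19 against the deepest non-cycling cells; that of mitosis genes, 2.06, was 3.54 and 0.83 with the 2 pseudocounts. The share of cycling cells with UMIs of at least 2 CD3 genes, 76.7%, was 98.1% without thinning, 47.2% after thinning to 1000 UMIs and 38.1% for at least 3 genes. Cycling cells without thymocyte genes numbered 72, 383, 12, 1286 and 1476 in the naive, wk2 and wk3 ta-non-activated, and wk2 and wk3 ta-activated libraries; they numbered 44, 242, 4, 928 and 972 with at least 3 cell-cycle genes and 35, 97, 38, 621 and 614 after thinning to 2000 UMIs, which also moves thymocyte-like cells that lose their thymocyte UMIs into the count of 38. The 24 genes named by rank kept their direction under each of the 11 alternatives to the contrast. So did the 205 listed genes called at 2-fold, which include 12 cell-cycle and 5 thymocyte genes of the rule. A change of pseudocount or of the UMI filter cannot turn a direction. The 24 were also picked for their ratios in these same cells, so the kept directions are no independent support. Of the 205, 163 were still called against the deepest non-cycling cells, 188 with median-of-ratios scaling and 104 with a pseudocount of 50 CPM. The causes of these shifts were not tested, beyond the pull of a larger pseudocount toward 0. Intervals cover counting error only, and differences between mice cannot be seen.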
